A study of Mus musculus with 2 samples.

Results

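The genes described here carry the signal from the TNF receptors to the transcription factor NF-kB, together with the inhibitors and targets that NF-kB induces. They are 44 genes, listed by name for their known roles although with earlier results of these data known, and all 44 had a probe on the array, among 20660 named genes in all. Of the 44, 43 were measured on both arrays, that is, had a probe well above background on each, as had 12875 of all named genes. The 1 member that was not measured was Rel. RNA came from cultured bone marrow-derived macrophages taken from male mice, either wild type for the calpain-6 gene Capn6 (group Capn6-Wt) or knocked out for it (group Capn6-Ko), with 1 array per genotype. Both cultures grew in 10% serum with M-CSF, the macrophage growth factor, at 50 ng/mL and with TNF-α at 10 ng/mL. Every value below therefore describes cells exposed to TNF, and there was no culture without it. The description says day 3 of culture whereas the source name says day 4, and the labels do not give the age of the mice or the kind of knockout allele. Cells of 4 mice were pooled, per the series design text, which does not say whether 4 is the number for each genotype. With 1 pool per genotype no test between genotypes was possible. No p-value is given, and each difference is that between these 2 RNA pools.

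TNF binds the receptors TNFR1 (gene Tnfrsf1a) and TNFR2 (gene Tnfrsf1b). TNFR1 assembles a complex of the adaptor TRADD, TRAF proteins, cIAP ubiquitin ligases and the kinase RIPK1, on which the TAK1 and IKK kinases are activated. IKK marks the IkB proteins for destruction and so frees NF-kB dimers to enter the nucleus. There they induce inflammatory genes, and also their own inhibitors, so that the response is limited by feedback. In macrophages this circuit controls much of the inflammatory response.

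The quality and make-up of the pools were checked first. The arrays had 51.7% and 52.8% of 59305 spots well above background, and no saturated spot. The single Capn6 probe was not well above background on either array (signals of 3.93 and 8.65; pairs of values are given here and below with Capn6-Wt first and Capn6-Ko second), so it does not check the genotype labels. The macrophage markers Csf1r and Adgre1 were well above background on both arrays, and of 18 measured macrophage markers of 20 listed 12 (66.7%) were higher in Capn6-Ko, beside 47.8% of all measured genes, with a median log2 difference of 0.069 and a mean of 0.16. By a log2 difference of at least 0.32, 4 of the 18 were higher and none lower, beside 2.64% and 5.53% of all measured genes. By more than 2 spot SDs 8 were higher and none lower, beside 5.2% and 6.37%. The summed level of the macrophage markers, in units of the 75th percentile of each array, was 1359 and 1369. Among defining markers of other cells, Cd3e (T cells, 499 and 458) and Itga2b (megakaryocytes, 292 and 306) were well above background on both arrays, the erythroid gene Klf1 in Capn6-Wt alone, and Ly6g had no matched probe. Of 24 measured stromal fibroblast and smooth muscle markers of 25 listed, 21 were lower (87.5%, beside 52.2% of all measured genes), with a median of -0.49. The summed level of these stromal genes, in units of the 75th percentile of each array, was 130 and 89.1. Among them, Col1a1 had signals of 2124 and 1552 and Acta2 of 6937 and 4520. In bulk RNA, fewer cells of a type and less RNA per cell cannot be told apart.

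The genes of TNF and NF-kB signalling differed little between the pools, as did most measured genes. Their median log2 difference, Capn6-Ko minus Capn6-Wt, was 0.0076, beside -0.0056 over all 12875 measured genes, and its sign changed with the scaling of the arrays (-0.0061 to 0.072). Differences ran from -0.44 to 0.23, and 30 of 43 (69.8%) lay within 0.1 of 0, beside 61.4% of all measured genes. Above the median level of measured genes these shares were 75% (21 of 28) and 77.3%. As a fixed size, a log2 difference of at least 0.32 was counted. None of the 43 was that much higher in Capn6-Ko, where 2.64% of all measured genes were. A single member, the stress-induced survival gene Ier3, was that much lower, which is 2.33% of the members, where 5.53% of all measured genes were. The SD over the members was 0.12, and 0.097 without Ier3, beside 0.18 over all measured genes.

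Dim genes scatter more, and these genes were brighter than most. Of the 43, 28 were above the median level of measured genes. None of these 28 reached this size in either direction, where 0.684% of the 6437 genes above the median level were that much higher and 0.886% that much lower. The SD over the 28 was 0.093, beside 0.10 over the 6437 genes. The members above the median level were thus spread about as widely as other genes of that brightness.

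The only measured error is that of spotting and scanning. Each ± below is the SD of a log2 difference expected from the spread of repeated spots at that level. It holds no variation between mice, cultures or labelling reactions. By more than 2 such SDs, 2 members were higher in Capn6-Ko (Tnf and Nfkbie), 4.65% of the 43, and 3 were lower (Ier3, Ripk3 and Cflar), 6.98%. The same shares over all measured genes were 5.2% and 6.37%, and over genes above the median level 5.61% and 4.46%. The shares of the members lie near these, so the counts themselves set the members apart in neither direction. The plot of differences by role shows all 43 members.

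**Figure D1:**
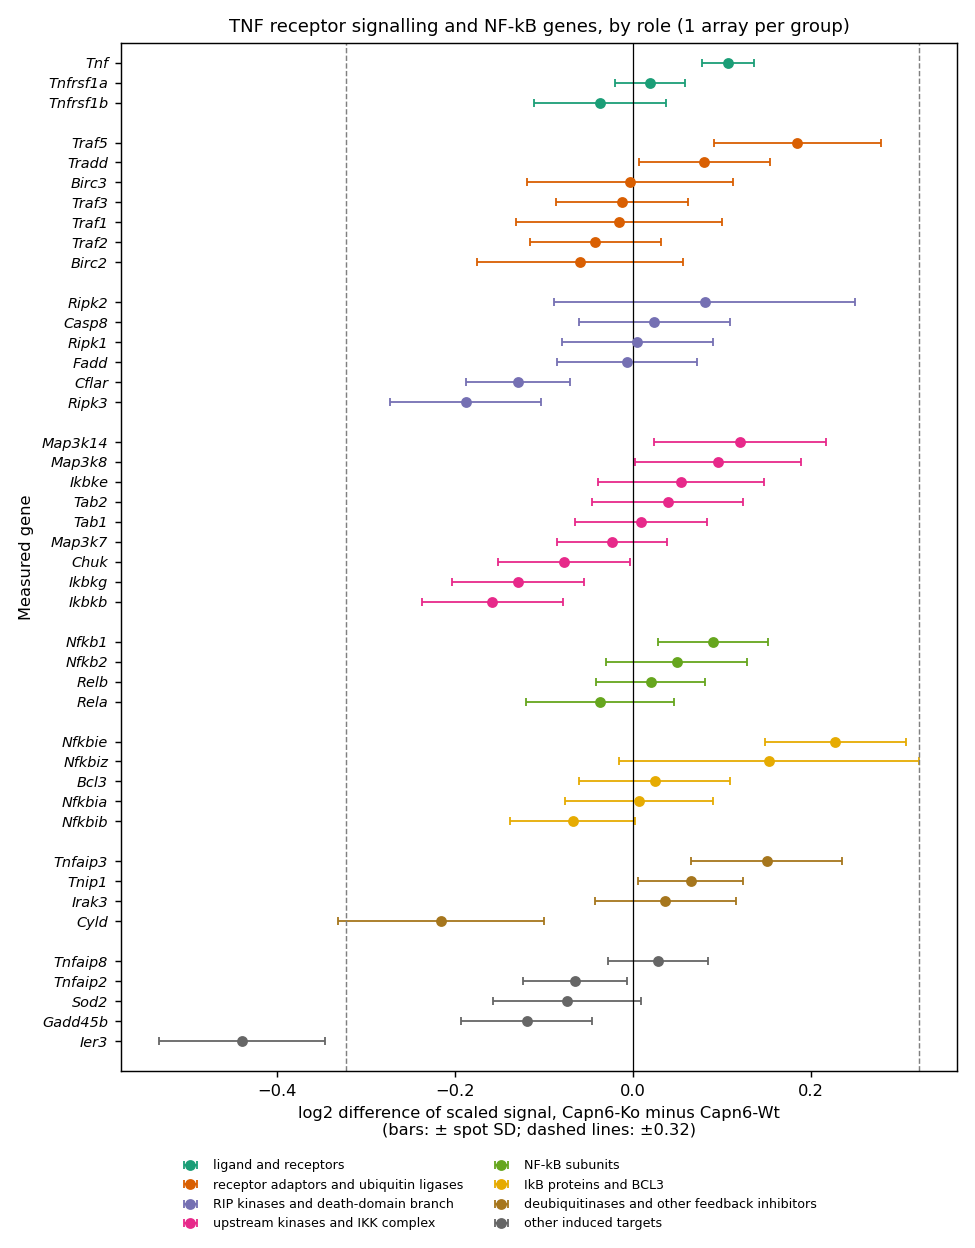
Log2 difference of the scaled signal, Capn6-Ko minus Capn6-Wt, on the x axis for each of the 43 measured genes on the y axis, grouped and coloured by role, with bars of ± 1 spot SD and dashed lines at ± 0.32. Ier3, at -0.44, is the only gene outside the dashed lines, and Nfkbie, at 0.23, is the highest.

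**Figure D2:**
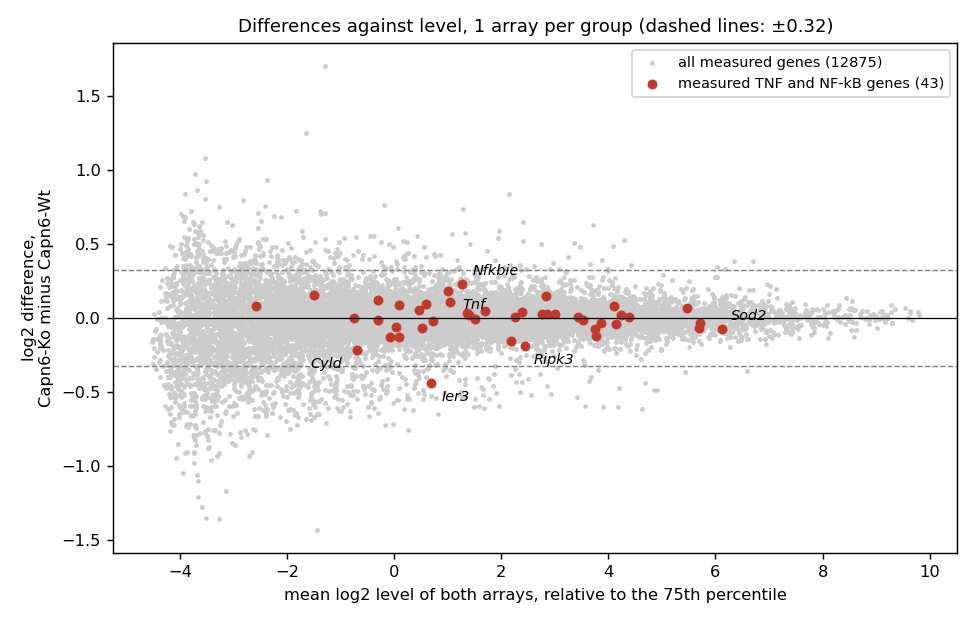
Log2 difference on the y axis against the mean log2 level of both arrays on the x axis, for 12875 measured genes (grey) and the 43 TNF and NF-kB genes (red), with dashed lines at ± 0.32. The grey cloud is widest at low levels, and all red points but Ier3 lie between the dashed lines.

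The ligand and its receptors differed little. Tnf, the ligand gene, was read by 10 spots of 1 probe per array, and so has the smallest spot error of all members. Its spots had a lowest, median and highest signal of 690, 749 and 786 on the Capn6-Wt array and of 776, 786 and 820 on the Capn6-Ko array. Of the 10 Capn6-Ko spots, 5 were above the highest Capn6-Wt spot by signal and 8 after scaling of the arrays, and the ranges overlapped on both scales. The difference was 0.11 ± 0.030, or 1.08-fold, larger than the spot error. Tnfrsf1a had a probe with 10 spots in Capn6-Wt, from 10494 to 11699 with a median of 11048, and 8 usable spots in Capn6-Ko, from 10427 to 11652 with a median of 11251. These ranges nearly coincided, and with its other probe the gene stood at 0.019 ± 0.040. Tnfrsf1b had signals of 5571 and 5364 and a difference of -0.036 ± 0.074. Neither receptor gene differed by more than the spot error.

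**Figure D3:**
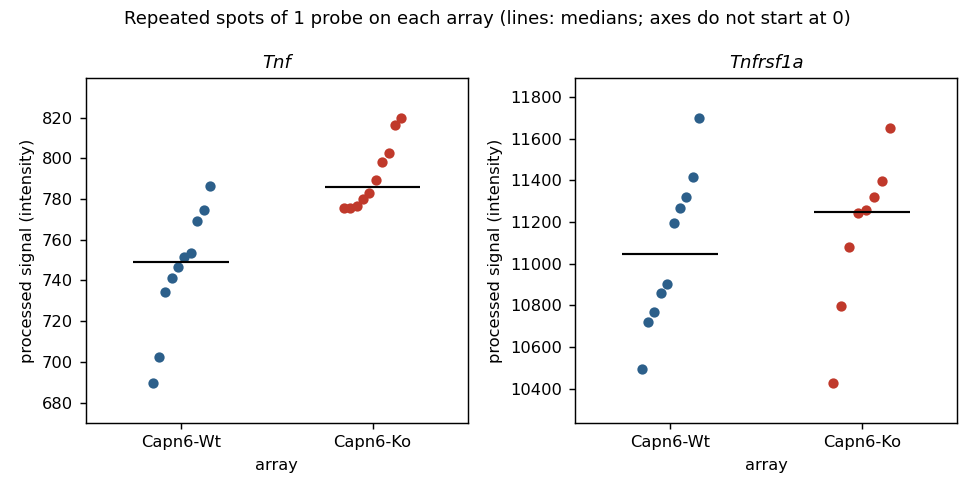
Processed signal of each repeated spot (y axis, intensity, not starting at 0) on the 2 arrays (x axis) for 1 probe of Tnf and 1 of Tnfrsf1a, with lines at the medians. The Tnf spots are mostly higher on the Capn6-Ko array (median 786 against 749), while the Tnfrsf1a spots overlap over nearly their whole range. Spots of 1 array share 1 RNA pool and are not replicates.

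A signal here is the processed intensity of a probe before scaling. A difference is taken after each array is divided by its own 75th percentile, 377 in Capn6-Wt and 372 in Capn6-Ko, so that a gene with slightly lower raw signal can have a difference just above 0. For example, Nfkbia had signals of 7808 and 7751 and a difference of 0.0076.

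The adaptors and ubiquitin ligases at the receptor had a median difference of -0.012 over 7 genes. Traf5, an adaptor of several TNF family receptors, had signals of 708 and 795 and stood at 0.19 ± 0.093, the furthest of the group. Tradd, the first adaptor of TNFR1, was at 0.081 ± 0.074. The other 5 were within their spot error. Traf1, itself an NF-kB target, was at -0.015, and Traf3, a brake on the alternative NF-kB pathway, at -0.012. The cIAP genes Birc2 and Birc3 were at -0.059 and -0.0030. Traf2, which recruits the cIAPs, was at -0.042 ± 0.074 by a bright probe with signals of 6779 and 6502. A second, dim Traf2 probe had signals of 18.9 and 29.0 and passed the background limit in Capn6-Ko alone. After scaling it was 1.55-fold higher there, a log2 difference of 0.64. At such low levels 1 spot per array gives a spot SD of 0.33. That SD comes from probes well above background on both arrays, which the dim probe was not, so it does not cover it. The dim probe does not enter the gene's value.

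The RIP kinases and the death-domain branch decide whether the TNFR1 complex signals survival or cell death. Genes of this branch had a median of -0.00083 over 6 genes, with its furthest members on the lower side. Ripk3, the kinase that drives necroptosis, had signals of 2183 and 1893, a difference of -0.19 ± 0.085. Cflar, which encodes cFLIP, the inhibitor of caspase-8, was at -0.13 ± 0.059 over 3 probes. Its probes were all lower in Capn6-Ko, at -0.051, -0.14 and -0.19, with signals of 669 and 638, 599 and 536, and 186 and 160. Casp8 (0.024 ± 0.085), its adaptor Fadd (-0.0065 ± 0.079) and Ripk1 (0.0049 ± 0.085) were within their spot error. Ripk2, the kinase of NOD receptors, was dim, with signals of 61.1 and 63.9, and stood at 0.081 ± 0.17.

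Among the kinases, the subunits of the IKK complex were all below 0, each by less than 2 spot SDs. Of all measured genes 52.2% were below 0. The catalytic subunit gene Ikbkb had signals of 1802 and 1596 and stood at -0.16 ± 0.079. The other catalytic subunit gene, Chuk, was at -0.077 ± 0.074, with signals of 5221 and 4889. Ikbkg, which encodes the regulatory subunit NEMO, was at -0.13 ± 0.074 over a probe at -0.25 (273 and 226) and one at -0.0050 (506 and 498). Its gap of 0.25 was the widest between probes of any member. Of the kinases upstream of the alternative pathway and of the MAP kinases, Map3k14 and Map3k8 were above 0, each by less than 2 spot SDs. Map3k14, or NIK, was at 0.12 ± 0.097, with both probes above 0, and Map3k8, or TPL2, at 0.096 ± 0.093. The TAK1 gene Map3k7 was at -0.023 ± 0.061, the 1 member of 11 with several measured probes whose probes differed in sign. Over all genes with several measured probes, 1526 of 3331 had probes that differed in sign. The TAK1 partners Tab1 (0.0091) and Tab2 (0.039) and the IKK-related kinase Ikbke (0.054) were within their spot error. The median over the 9 kinase and IKK genes was 0.0091.

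The NF-kB subunits showed no difference beyond 2 spot SDs. Rela, the main activating subunit of the classical pathway, had signals of 20095 and 19345 and a difference of -0.037 ± 0.083. Nfkb1, which encodes its usual partner, was at 0.090 ± 0.062, with signals of 391 and 411 as a mean over 2 probes. Nfkb2, the partner of RelB in the alternative pathway, had signals of 1203 and 1229 and stood at 0.050 ± 0.079. Relb was at 0.020 ± 0.061, its 2 probes at 0.014 and 0.027. The only Rel probe had signals of 10.5 and 6.80, not well above background on either array, so no fold is given for this subunit.

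NF-kB dimers bind the kappaB motif, a stretch of 10 bases that begins with GGG and ends with CC. Promoters of the genes were read from RefSeq on the build GRCm38.p6, over the 250 bases before each annotated start, and 35 of the 44 members had an entry. The kappaB consensus, searched on both strands, was found for 11 of the 35 (31.4%), where 4.46% of all 27025 genes in the table and 5.43% of the 10301 measured ones had a match. The members were listed as NF-kB genes, so the high share describes the list. With a looser pattern, GGG followed by any 5 bases and CC, it was 71.4% of the members, 48.7% of all genes and 64.7% of the measured ones. A match is a description of the sequence and not a bound site, and the windows hold no distal enhancer.

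Stretches of 6 such promoters are shown because they belong to the inhibitors and subunit through which NF-kB regulates itself, and to the member that differed most. Bases of a kappaB match on either strand are in capitals, and each stretch reads 5′ to 3′ on the gene's strand. It runs for Nfkbia over chr12:55492648-55492701 (minus strand), for Nfkbie over chr17:45555569-45555628 (plus), for Tnfaip3 over chr10:19015411-19015560 (minus), for Tnip1 over chr11:54962962-54963023 (minus), for Nfkb2 over chr19:46304673-46304736 (plus) and for Ier3 over chr17:35821596-35821655 (plus).
Nfkbia: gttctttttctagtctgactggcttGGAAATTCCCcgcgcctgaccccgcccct
Nfkbie: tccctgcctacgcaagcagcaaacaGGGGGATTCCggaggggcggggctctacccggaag
Tnfaip3: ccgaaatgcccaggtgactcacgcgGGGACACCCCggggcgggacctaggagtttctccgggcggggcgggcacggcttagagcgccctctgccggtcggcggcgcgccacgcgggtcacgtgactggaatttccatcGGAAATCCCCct
Tnip1: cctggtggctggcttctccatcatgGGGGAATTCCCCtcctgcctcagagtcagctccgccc
Nfkb2: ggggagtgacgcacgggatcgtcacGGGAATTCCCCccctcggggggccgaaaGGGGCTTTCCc
Ier3: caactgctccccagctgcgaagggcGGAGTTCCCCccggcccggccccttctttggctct

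**Figure D4:**
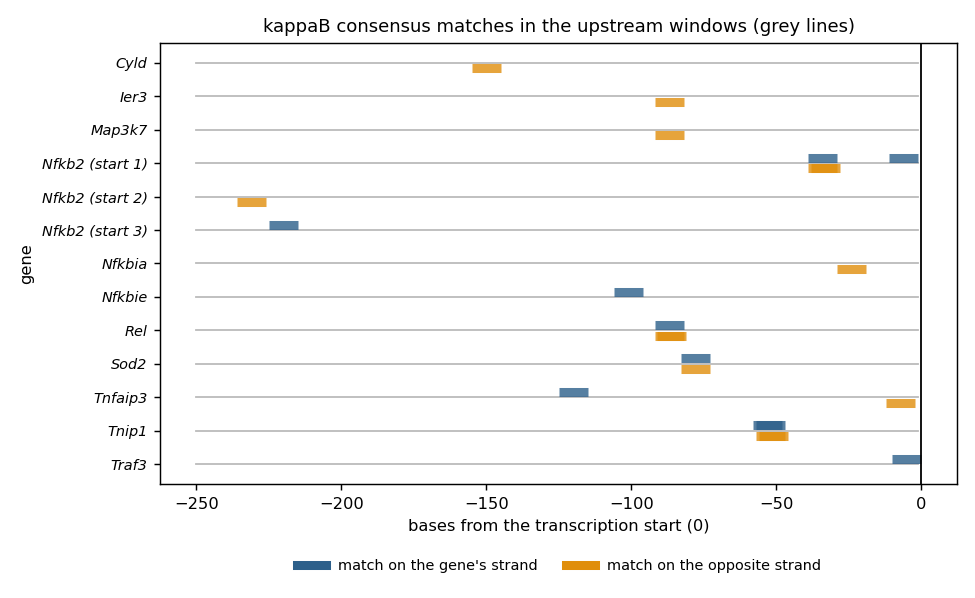
Positions of kappaB consensus matches (bars, by strand) in the windows of up to 250 bases before the transcription start (x axis, bases) for the 11 genes with a match (y axis), with each of the 3 Nfkb2 starts on its own line. All matches begin at -125 or nearer the start, except those of Cyld and of 2 of the 3 Nfkb2 starts. The nearest, in Traf3, ends at -1.

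Carrying a match did not go with 1 direction. The 10 measured members with a match had a median of -0.0021, with 5 above 0 and 5 below, between Ier3 at -0.44 and Nfkbie at 0.23. The 24 measured members with a promoter entry and no match had a median of -0.011. Over all 559 measured genes with a match the median was -0.00077, and over the 9742 without it -0.0045.

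The IkB proteins, which hold NF-kB in the cytoplasm or act on it in the nucleus, had a median of 0.025 together with BCL3. Nfkbie, which encodes IkB-epsilon and has a match from -106 to -97 before its start, was the member furthest on the higher side. Its signals were 839 and 970, a difference of 0.23 ± 0.079, or 1.17-fold. Nfkbia, the rapidly resynthesised IkB-alpha, differed by 0.0076 ± 0.083 and was within its spot error. Nfkbib was at -0.067 ± 0.070, its 3 probes between -0.099 and -0.0069. The nuclear IkB gene Nfkbiz was dim, with signals of 126 and 138, and stood at 0.15 ± 0.17, and Bcl3 was at 0.025 ± 0.085.

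The enzymes and adaptors that shut the pathway off lay on both sides of 0. Tnfaip3, the ubiquitin-editing enzyme that NF-kB induces, had signals of 2548 and 2793 and a difference of 0.15 ± 0.085. Its partner Tnip1 was at 0.065 ± 0.059, with signals of 14099 and 14205 for one probe and 18720 and 19830 for the other. Irak3, a brake on Toll-like receptor and interleukin-1 signalling, was at 0.037 ± 0.079. Cyld, the deubiquitinase that removes linear and other ubiquitin chains, had signals of 251 and 213 and stood at -0.22 ± 0.12, the second lowest value of all members.

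The other induced targets were below 0 in 4 of 5 genes, where 52.2% of all measured genes were, with a median of -0.074. Ier3 alone of the 5 was lower by more than 2 spot SDs. Ier3 had signals of 704 and 513, a difference of -0.44 ± 0.093, which is 1.36-fold lower in Capn6-Ko and rests on 1 spot per array. Its value ran from -0.45 to -0.37 over other scalings and background corrections. Settings that filter or combine spots and probes could not move it, since it is read by 1 spot of 1 probe. Beside it stands the stromal marker median of -0.49. Its part in the Ier3 difference was not tested. Gadd45b, a stress sensor that NF-kB induces against cell death, was at -0.12 ± 0.074, with signals of 5386 and 4896. Sod2, the mitochondrial superoxide dismutase, had signals of 27016 and 25348 and stood at -0.074 ± 0.083. Tnfaip2 was at -0.065 ± 0.059 and Tnfaip8 at 0.029 ± 0.056, each over 2 probes.

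Genes around the 44 were compared by 4 further lists. Of 16 TNF superfamily ligands 15 had a matched probe. These were mostly not well above background, with 6 measured, none past 0.32 and a median of 0.018. Of 62 further signalling components 61 had a matched probe, and all 61 were measured. Their median was 0.0034, with 2 past 0.32 higher and 2 lower (3.28% each, beside 2.64% and 5.53% of all measured genes). Tnip3, a relative of Tnip1 that blocks NF-kB activation, was highest at 0.72 ± 0.17, with signals of 82.0 and 134 as a mean of 2 probes, both above 0. Map2k6, a kinase of the p38 pathway, was at 0.42 ± 0.17 (59.6 and 78.9). On the lower side Traf4, an adaptor, stood at -0.49 ± 0.038 (277 and 194), and Map2k7, a JNK kinase, at -0.37 ± 0.33 (41.5 and 31.8), close to its spot error. The linear ubiquitin ligase subunits Rnf31 (0.017), Rbck1 (0.0041) and Sharpin (-0.016) were within theirs.

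Other receptors of the TNF family lay on the lower side. Of 26, 19 were measured, and 15 of these (78.9%) were below 0, beside 52.2% of all measured genes, with a median of -0.075. Past 0.32 lower were 2 (10.5%), beside 5.53% of all measured genes. Those were Tnfrsf11b, the RANKL decoy receptor osteoprotegerin, at -0.53 ± 0.17 (signals of 131 and 89.0), and Tnfrsf19 at -0.46 ± 0.33 (37.3 and 26.7). Both are dim, and dim genes scatter more. Of the 6 receptors above the median level of measured genes, 5 were below 0, beside 51.5% of all genes above that level. None of the 6 was past 0.32 lower, beside 0.886%. The RANK gene Tnfrsf11a was the highest, at 0.32 ± 0.074 (3069 and 3770), just inside the fixed size of 0.32. When arrays were scaled to their medians, the list median was -0.011. The stromal list was at -0.49 in the same pools, and its part in these values was not tested.

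Further NF-kB target genes were spread wider than the 44. Of 59, 56 had a matched probe and 48 were measured, with a median of 0.059 and an SD of 0.25. Past 0.32 were 5 higher (10.4%) and 4 lower (8.33%), beside 2.64% and 5.53% of all measured genes. Among the 25 above the median level of measured genes the SD was 0.23, beside 0.093 for the 28 members above it, with 1 past 0.32 higher and 3 lower. Several of the genes named next are dim, and their values are less certain. Higher were the cytokines Il1b (0.62 ± 0.11, signals of 24.2 and 36.8) and Il10 (0.50 ± 0.10, 25.5 and 35.6). So were the acute phase gene Saa3 (0.45 ± 0.079, 1075 and 1453), the tissue factor gene F3 (0.45 ± 0.33, 30.0 and 40.6) and the complement gene Cfb (0.34 ± 0.33, 46.9 and 58.5). Lower were the monocyte chemokines Ccl7 (-0.52 ± 0.085, 3451 and 2383) and Ccl2 (-0.42 ± 0.023, 5461 and 4018). The prostaglandin synthase Ptgs2 (-0.50 ± 0.037, 193 and 135) and the M-CSF gene Csf1 (-0.48 ± 0.045, 1406 and 996 over 3 probes) were lower too. The stromal marker median stood at -0.49 beside these. Some other targets, among them Ccl3 (0.023), Ccl4 (0.056), Irf1 (0.018) and Icam1 (0.013), were within their spot error. By more than 2 spot SDs, 8 of the 48 were higher and 7 lower, beside 5.2% and 6.37% of all measured genes. The part of stromal cells in the 4 values past 0.32 lower was not tested.

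**Figure D5:**
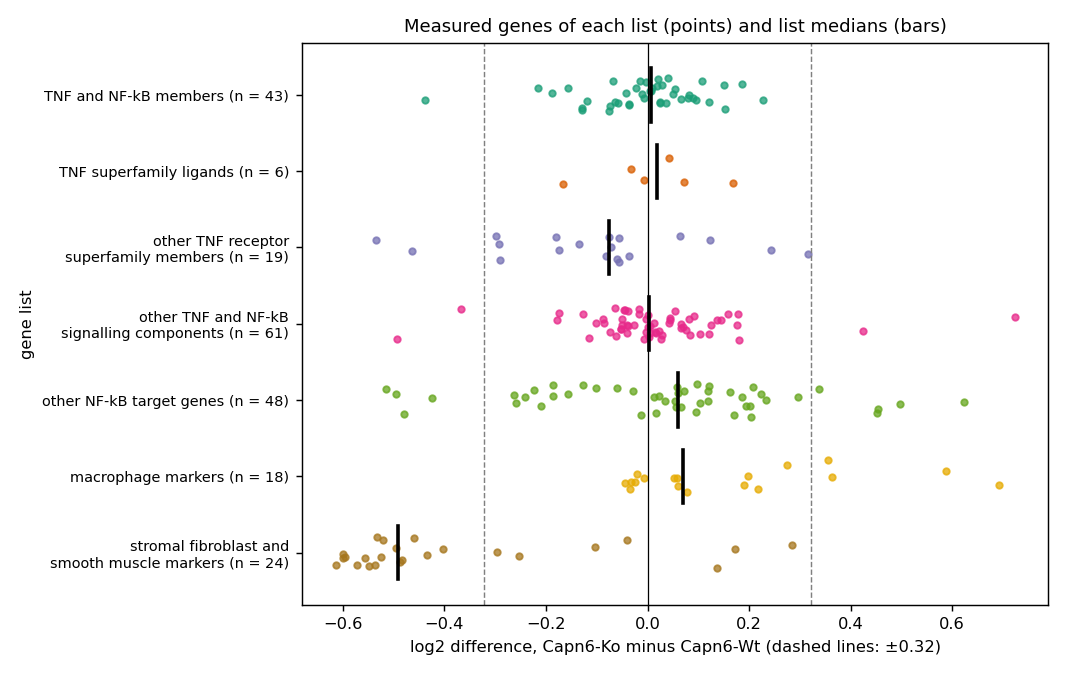
Log2 difference, Capn6-Ko minus Capn6-Wt (x axis), of each measured gene (points) in 7 gene lists (y axis), with list medians as bars and dashed lines at ± 0.32. The TNF and NF-kB genes centre on 0 (median 0.0076), the other NF-kB targets reach past the dashed lines on both sides, and the stromal markers centre at -0.49.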

How the data were processed

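Per the file headers, the deposited spot intensities are linear values that Agilent Feature Extraction (version 10.10.1.1) wrote for the authors. The processed signal used here is background-subtracted within each array. Control spots and outlier-flagged spots (161 and 136) were left out. Each signal was divided by its array's 75th percentile and put on the log2 scale, spots of a probe were averaged, and a gene is the mean over its probes well above background on both arrays in most spots. Probes were named through RefSeq accessions (GRCm38.p6 gene table). The spot SD comes from 263 probes with at least 5 spots per array and well above background on both arrays, in 8 bins of level. The number of arrays limits all precision. The members and gene lists were chosen with earlier results of these data known, as was the fixed size of 0.32 (log2). Signals are given for members past 0.32 or 2 spot SDs, for Tnf, its receptors, the NF-kB subunits, Nfkbia and Tnfaip3, and for others picked after their values were seen. Other lists name genes past 0.32, at most 5 per direction; further genes named from them were picked after their values were seen. Python 3.11.15 and limma 3.58.1 (quantile and normexp alternatives) were used, and the code was tested on simulated data. Medians of marker lists that are not described with the results were -0.033 (neutrophil), 0.084 (dendritic cell), -0.087 (B cell), -0.024 (T and NK cell), -0.15 (erythroid), 0.19 (megakaryocyte), -0.065 (mast cell) and -0.051 (endothelial). One further defining marker is not reported here.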

Additional observations from a re-analysis of the deposited data

Results flagged for a closer look

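The dim second probe of Traf2 gave a signal that enters no gene value, since it passed the background limit in Capn6-Ko alone. The dim probe was 1.55-fold higher there, a log2 difference of 0.64. The spot SD at such low levels is 0.33, but only for probes well above background on both arrays. The bright probe of the same gene was at -0.042 ± 0.074 on the log2 scale. Each of these is 1 spot per array, and no cause was tested.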

How the results depend on the processing

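Other scalings, background corrections, dim-probe filters and probe rules, 11 in all, left 0 members higher by 0.32 or more (log2) and Ier3 lower by that much each time. The filters and probe rules among them could not move the value of Ier3, which rests on 1 spot per array. With no filter on dim probes the count of lower members was 2 instead of 1, because Rel, not well above background on either array, entered the count. At a size of 1.5-fold the count was 0. The median over the members ran from -0.0061 to 0.072, the latter with arrays scaled to their medians, which moved the median of all genes from -0.0056 to 0.059. Members above and below 0 were then 32 and 11 instead of 23 and 20, and 20 and 23 with the percentile over detected spots, so the sign of small differences depends on the scaling, and the median of the other induced targets was -0.0090. Which members lie past 2 of the spot SDs given above also depends on the processing. With arrays scaled to their medians Ripk3 was at -0.12 and Cflar at -0.064, while Traf5 was at 0.25 and Tnfaip3 at 0.22. Nfkb1 (0.15), Tnip1 (0.13) and Tnfrsf1a (0.084) were then also higher by more than 2 of their spot SDs. By its brightest probe alone Cflar was at -0.051. The relaxed kappaB pattern matched 25 promoters instead of 11. The normexp setting used median spot signals, a choice made after seeing the data. No paired analysis was possible because each genotype has 1 array. Of the members, 31 rest on 1 spot per array, and 25 of 43 (58.1%) lay within 1 spot SD, beside 62.6% of all measured genes.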
